A study of Homo sapiens with 5 samples.

Results

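The protein kinase C (PKC) isoform genes described here were 10 genes taken by symbol from a table of 35453 gene names, with the transcripts of each gene summed. They were the conventional isoforms PRKCA and PRKCB, the calcium-independent isoforms PRKCD, PRKCE, PRKCH and PRKCQ, the atypical isoforms PRKCI and PRKCZ, and the protein kinase D genes PRKD1 and PRKD2. The cells were KGN, an established line from a human granulosa cell tumour, so every value comes from 1 tumour line. All groups shared a charcoal-stripped medium that held androstenedione at 100 nmol/L, the substrate of aromatase, and were treated for 24 h. The control had ethanol by the written protocol and no treatment by its title. The other groups had follicle-stimulating hormone (FSH) at 100 ng/mL, forskolin (FSK), which activates adenylate cyclase and so protein kinase A (PKA), SC79 at 4 µg/mL, an activator of AKT (PKB), or phorbol myristate acetate (PMA), an activator of PKC. The labels give FSK as 10 mmol/L and PMA as 0.1 mmol/L, while the protocol has a micro sign in symbol font before each unit.

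PKC enzymes are serine/threonine kinases that act below receptors coupled to phospholipase C. Conventional isoforms need calcium and diacylglycerol, and calcium-independent isoforms need diacylglycerol alone. Atypical isoforms answer to neither but bind partner proteins such as PAR6 and p62. Phorbol esters take the place of diacylglycerol at the C1 domain, and protein kinase D has C1 domains too and is switched on by calcium-independent PKCs. In granulosa cells PKC is one of the routes by which gonadotropins and other ligands act beside cAMP. Long exposure to phorbol ester is known to deplete the PKC proteins that bind it, which RNA counts do not measure.

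Each group had 1 library, made from RNA pooled over 3 cultures of different weeks, which leaves no replicate error to test against. Library totals ran from about 50253100 to 58849700 estimated counts. Values are estimated counts scaled to a common library size, and bracketed ranges are exact 95% intervals of a ratio that cover counting error only. Of the granulosa markers, FOXL2 had 9136 to 10392 scaled counts in 4 libraries and 5458 with PMA, and NR5A1 had 4684 or more in each library. The receptors were lower, FSHR at 92.7 in control, 131.8 with FSK and 36.6 with PMA, and AMHR2 at 98.2, 219.7 and 15.8. The rest of the granulosa list was above control with both FSK and PMA. In the same order STAR had 1012, 10091 and 5383, and CYP19A1 had 901.6, 27444 and 1690.5. INHBA had 1343, 5223 and 2907, and INHA had 61.5, 921.5 and 74.2. Of the epithelial markers KRT19 had 3841 in control, 1035 with FSK and 890 with PMA, and KRT18 47760, 29866 and 35952. In the same order KRT8 had 3685, 2679 and 3431. EPCAM had 35.81, 11.51 and 40.58, and CDH1 had 11.06, 11.98 and 29.16, so these low-count markers were not below control with PMA. Of 13 leukocyte markers 11 had under 20 scaled counts in every library, and 4 of these had 0, among them CD3D, CD3E and CD2. The endothelial cadherin CDH5 had at most 2.0. PECAM1, a vessel marker, had 76.5 to 171.6 scaled counts in 4 libraries and 648.2 with PMA, and CD68, a lysosomal macrophage marker, had 791.5 to 1064 and 2178 with PMA. Other endothelial markers did not all go that way, with VWF at 98.3 in control and 237.5 with PMA and KDR at 138.6 and 103.9. The leukocyte list summed to 853.3 to 943.8 in control, FSH and FSK, 1136 with SC79 and 2244 with PMA, with 1 of 13 genes reaching 100, and the endothelial list to 349.3 to 460.1 and 1036, with 3 of 7. The part of these marker differences in the results with FSK and PMA was not tested. Less RNA per cell and fewer cells of a type cannot be told apart in such pooled RNA.

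The isoforms differed in level far more than any of them differed between treatments. Levels of different genes were compared per annotated transcript length, scaled to the same sum over all genes in every library (a TPM scale). On that scale PRKCA was highest, with 88.4 in control, 91.7 with FSH, 137.5 with FSK, 81.8 with SC79 and 111.8 with PMA. PRKCI followed with 79.8, 79.2, 106.2, 82.0 and 85.8 in the same order of libraries, and the ranges of these 2 genes overlapped. A calcium-dependent and an atypical isoform thus led the list, together 61.8% of the summed level of the 10 genes in control and 71.2% with FSK. PRKD2 was next at a median of 40.8 over the 5 libraries, then PRKD1 at 25.3 and PRKCD at 19.3. PRKCD and PRKD1 overlapped in range, and so did PRKCD and PRKCH, which had a median of 10.5. PRKCE had a median of 5.75, PRKCZ 2.88 and PRKCQ 1.32, with no overlap between neighbours from PRKCH downwards.

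**Figure D1:**
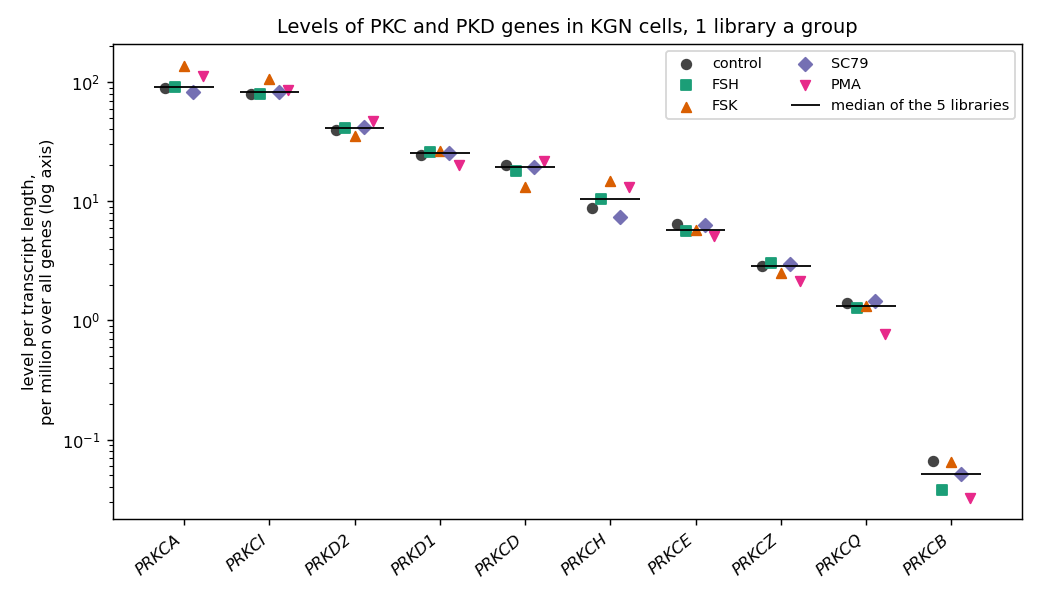
Level per transcript length (TPM scale), on a log axis for each gene, with 1 point per library and a line at the median of the 5 libraries. PRKCA and PRKCI lie highest with medians of 91.7 and 82.0, and PRKCB lies lowest at 0.0516.

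PRKCB, the other conventional isoform measured, was close to absent. It had 5.52 scaled counts in control, 7.0 with FSH, 12.02 with FSK, 9.55 with SC79 and 5.69 with PMA. All 4 intervals of its ratio to control included 1, so no difference was detectable at this depth. Of the 10 genes, PRKCA was thus the conventional isoform gene that carried counts in quantity. Among related kinases, PRKD3, the remaining protein kinase D gene, had 39.7 to 53.6 per length, PKN2 24.3 to 33.6 and PKN3 4.17 to 9.99.

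Reads could be assigned to these genes with little competition. Of the 31-base words in the transcripts of PRKCI, 87.7% occurred in no other gene, and the gene that shared most, AC234775.2, had at most 2.13 scaled counts. For the other 9 genes the share of own words was 95.2% to 100%. On GRCh38, PRKCA (ENSG00000154229) lies on chromosome 17 from 66302636 to 66810743, PRKCI (ENSG00000163558) on chromosome 3 from 170222365 to 170305981, and PRKCH (ENSG00000027075) on chromosome 14 from 61187559 to 61550976. PRKCZ (ENSG00000067606) lies on chromosome 1 from 2050470 to 2185395 and PRKCQ (ENSG00000065675) on chromosome 10 from 6427143 to 6580301. PRKCD (ENSG00000163932) is on chromosome 3 from 53156009 to 53192717 and PRKCE (ENSG00000171132) on chromosome 2 from 45651345 to 46187990.

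Promoter windows are shown for the pair of most abundant genes and for PRKCZ, whose starts differ in use. All 10 genes had an entry in the RefSeq promoter table (GRCh38.p14), with 17 windows in all, each from 250 bases before to 50 bases after a start. The windows below are written 5′ to 3′ on the plus strand. Capitals mark TGACG (the core of the cAMP response element TGACGTCA), the AP-1 site TGACTCA or the GC box GGGCGG, on either strand. In order they are PRKCA at chr17:66302363-66302662, PRKCI at chr3:170222174-170222473, the upstream PRKCZ start at chr1:2050161-2050460 and an internal PRKCZ start at chr1:2073414-2073713.
PRKCA: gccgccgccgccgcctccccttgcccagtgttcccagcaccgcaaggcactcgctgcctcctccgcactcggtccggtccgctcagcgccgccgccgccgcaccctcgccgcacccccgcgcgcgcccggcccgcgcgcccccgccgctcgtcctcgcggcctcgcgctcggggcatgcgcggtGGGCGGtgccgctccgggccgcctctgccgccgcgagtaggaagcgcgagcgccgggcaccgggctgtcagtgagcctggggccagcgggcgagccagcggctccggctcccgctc
PRKCI: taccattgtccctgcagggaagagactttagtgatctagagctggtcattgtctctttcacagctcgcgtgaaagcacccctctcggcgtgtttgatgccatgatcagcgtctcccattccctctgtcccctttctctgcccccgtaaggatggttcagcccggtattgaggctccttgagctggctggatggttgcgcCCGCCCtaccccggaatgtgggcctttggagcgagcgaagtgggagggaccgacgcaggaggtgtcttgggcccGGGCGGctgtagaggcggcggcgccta
PRKCZ upstream: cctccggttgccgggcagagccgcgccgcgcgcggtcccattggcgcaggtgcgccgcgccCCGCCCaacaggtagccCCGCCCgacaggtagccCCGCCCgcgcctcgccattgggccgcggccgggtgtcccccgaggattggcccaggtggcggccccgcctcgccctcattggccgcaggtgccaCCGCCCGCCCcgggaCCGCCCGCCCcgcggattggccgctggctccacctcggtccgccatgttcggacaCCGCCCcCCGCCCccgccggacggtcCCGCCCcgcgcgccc
PRKCZ internal: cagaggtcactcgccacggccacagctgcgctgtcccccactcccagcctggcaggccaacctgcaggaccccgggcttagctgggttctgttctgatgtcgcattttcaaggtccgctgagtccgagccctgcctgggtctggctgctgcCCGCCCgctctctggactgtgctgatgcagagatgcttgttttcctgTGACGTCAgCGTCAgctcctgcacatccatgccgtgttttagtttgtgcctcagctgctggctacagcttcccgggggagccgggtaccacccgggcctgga
The full element TGACGTCA occurred in 1 of the 17 windows, the internal PRKCZ start, where it began 52 bases before the start. It occurs in 1.85% of 35116 windows of the same length. The core TGACG, which the full element contains, was in 3 of the 17 windows against 24.6% of all, and TGACTCA was in 0 against 4.95%. GC boxes were in 13 of the 17 windows against 45% of all, with 10 in the upstream PRKCZ window. No match says only that these letters are not in this window.

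Most PRKCZ counts fell on transcripts of the upstream start. The full-length transcript ENST00000378567.7, which starts at 2050470 and codes for 592 residues, held 84.2% of the gene's counts in control and 70.9% to 88.8% in the treated libraries. Another form, ENST00000478770.6, starts further in at 2145387 and codes for 347 residues with no C1 domain pattern. This form, annotated for nonsense-mediated decay, held 7.77% in control, 19.9% with FSH, 4.55% with FSK, 18.8% with SC79 and 15.9% with PMA. That was at most 28.3 scaled counts. The transcript ENST00000400921.6, which starts at 2073462, inside the internal window but upstream of its cAMP element, and codes for 409 residues with no C1 domain pattern, had 0 estimated counts in all 5 libraries, FSK included. A count of 0 allows up to 3 counts per library, and this limit does not cover reads assigned to other PRKCZ transcripts. The short product of such an internal start is known from brain as PKM zeta, a kinase without the regulatory part.

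FSH left these RNAs close to control. A comparison used genes that reached 100 scaled counts in either of its libraries, which PRKCB did not. Of the other 9 genes, 9 lay within 1.2-fold of control, as did 93.7% of 12473 genes, and 0 were at least 2-fold apart against 0.409% of genes. The median log2 ratio of the 9 was -0.02, and that of all genes was -0.01. PRKCH was highest at 1.19-fold [1.00 to 1.41] and PRKCD lowest at 0.880-fold [0.811 to 0.954]. SC79 gave the same picture, with 9 of 9 within 1.2-fold against 90.7% of 12484 genes and 0 at least 2-fold apart against 0.264%. Its median was -0.06, beside -0.01 for all genes. PRKD2 was highest there at 1.09-fold [1.03 to 1.15] and PRKCH lowest at 0.848-fold [0.701 to 1.02].

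**Figure D2:**
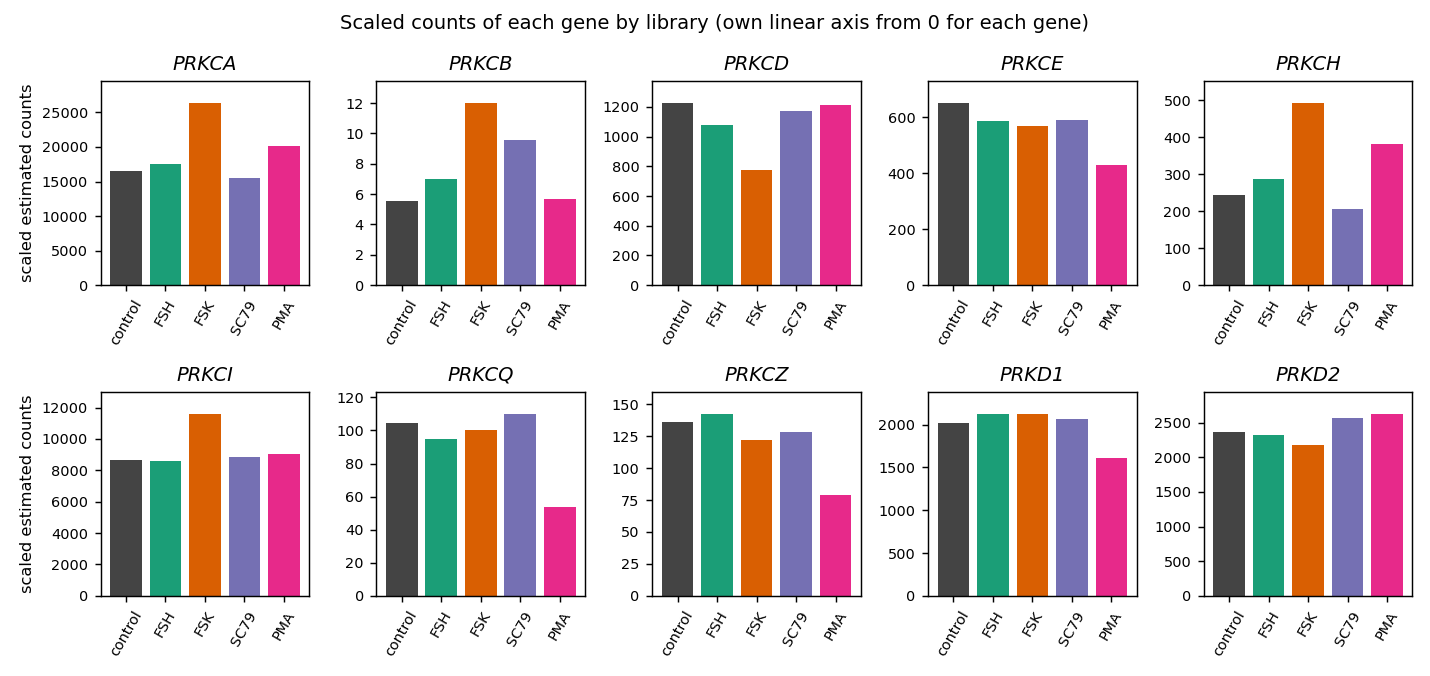
Scaled estimated counts of each gene in the 5 libraries, with a bar per library and an axis from 0 for each gene. FSK has the highest bar for PRKCA, PRKCH and PRKCI and the lowest for PRKCD, and PMA has the lowest for PRKCE, PRKCQ, PRKCZ and PRKD1.

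With FSK the isoforms went separate ways. PRKCH, PRKCA and PRKCI were higher than control, PRKCD was lower, and the PKD genes were close to it. Of the 9 genes 1 was at least 2-fold apart, against 9.56% of 12610 genes, and at 1.5-fold 3 were apart, against 19.9%. Within 1.2-fold of control 5 lay, against 52.5%. The median log2 ratio was -0.06 and that of all genes 0.01. With 9 genes such shares are coarse, and the 2-fold count is near its background.

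PRKCH, the calcium-independent isoform eta, known from epithelia, had 242.8 scaled counts in control, 287.9 with FSH, 493.0 with FSK, 205.9 with SC79 and 382.4 with PMA. FSK and PMA were the 2 highest libraries. The ratio with FSK was 2.03-fold [1.74 to 2.37], just past the 2-fold rule, and it was 1.69-fold when transcripts were weighted by length and 1.80-fold on the authors' normalized values, where it no longer passed. PRKCA, the calcium-dependent isoform alpha, had 16579.5 in control, 17483 with FSH, 26381 with FSK, 15478.5 with SC79 and 20095.5 with PMA. It was 1.59-fold higher with FSK [1.56 to 1.62], and the other 3 treated libraries lay between 0.934-fold and 1.21-fold. PRKCI, the atypical isoform iota that works with PAR6 in cell polarity, had 8684, 8593, 11612, 8838 and 9017 in the same order. Only the FSK library stood apart for it, at 1.34-fold [1.30 to 1.37].

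PRKCD, the calcium-independent isoform delta, known as a kinase of stress and cell death signalling, was the member lowest with FSK. It had 1227 scaled counts in control, 1079 with FSH, 773.4 with FSK, 1174 with SC79 and 1215 with PMA, or 0.630-fold with FSK [0.575 to 0.690]. The other 4 libraries lay between 1079 and 1227. PRKCD and PRKCA thus differed from control in opposite directions in the same library. With FSK, PRKCE was at 0.876-fold [0.782 to 0.981] and PRKD2 at 0.922-fold [0.870 to 0.977], and the intervals of PRKCQ, PRKCZ and PRKD1 included 1. The related kinase gene PKN3 was at 0.431-fold [0.377 to 0.492], from 756.5 to 326.4 scaled counts, PRKD3 at 0.714-fold [0.686 to 0.743] and PKN2 at 0.798-fold [0.760 to 0.837].

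PMA binds PKC proteins of the conventional and calcium-independent kinds, and 24 h later the lower-abundance isoform RNAs were the ones furthest from control. On scaled counts PRKCQ, PRKCZ and PRKCE were lower and PRKCH higher, each by at least 1.5-fold. PRKCZ among these is an atypical isoform, while PRKCD, whose protein binds phorbol ester, lay at control level. With length weighting PRKCZ was at -0.49 (log2), short of 1.5-fold. On the TPM scale control and PMA were 1.40 and 0.765 for PRKCQ, which stayed past 1.5-fold. PRKCE had 6.44 and 5.12 there, also short of 1.5-fold, and PRKCH 8.70 and 13.3, close to that threshold. Of the 9 genes 0 were at least 2-fold apart, against 7.26% of 12648 genes. At 1.5-fold 4 were apart on scaled counts, against 17.4%, a count that length weighting did not keep. Within 1.2-fold lay 3, against 55.2%. The median log2 ratio was -0.01, equal to that of all genes at 2 decimals.

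PRKCQ, the isoform theta of T cell receptor signalling, had 104.7 scaled counts in control, 94.96 with FSH, 100.4 with FSK, 110.2 with SC79 and 53.4 with PMA. Only the PMA library was low, at 0.511-fold [0.362 to 0.712]. The T cell markers CD3D, CD3E and CD2 were at 0 in all 5 libraries, and the pan-leukocyte gene PTPRC had 37.7 in control and 37.6 with PMA. PRKCZ, the atypical isoform zeta, had 136.1, 142.6, 121.9, 128.2 and 78.7 in the same order, again with PMA alone low, at 0.578-fold [0.432 to 0.761]. PRKCE, the calcium-independent isoform epsilon, had 651.0, 585.7, 570.1, 589.0 and 429.7, or 0.660-fold with PMA [0.584 to 0.745]. PRKD1 had 2019, 2120, 2129, 2062 and 1607, or 0.796-fold [0.746 to 0.849]. For these 4 genes the PMA library lay below the other 4.

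PRKCH was at 1.58-fold with PMA [1.34 to 1.85] and PRKCA at 1.21-fold [1.19 to 1.24], so these genes were above control with both FSK and PMA. Both ratios use the same control library. PRKD2 was at 1.11-fold with PMA [1.06 to 1.18] and PRKCI at 1.04-fold [1.01 to 1.07]. PRKCD was at 0.991-fold [0.916 to 1.07].

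**Figure D3:**
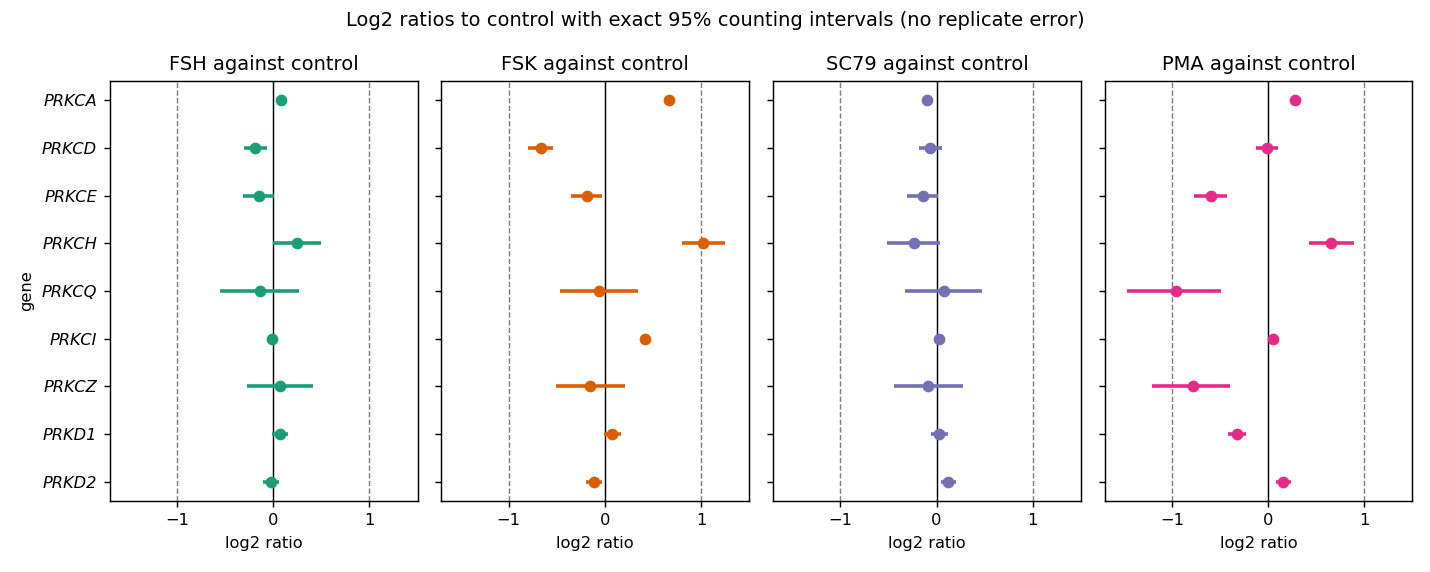
Log2 ratio to control of the 9 genes that reached 100 scaled counts, in a panel per treatment, with points for the ratio, bars for the exact 95% counting interval and dashed lines at 2-fold. Points with FSH and SC79 lie near 0, while PRKCH is at 1.02 with FSK and PRKCQ at -0.96 with PMA.

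Set directly against each other, without the control library, PMA was below FSK for PRKCA at 0.762-fold [0.748 to 0.776] and for PRKCI at 0.777-fold [0.755 to 0.798]. PRKCH was at 0.776-fold [0.676 to 0.889] and PRKCQ at 0.532-fold [0.374 to 0.750]. PRKCD was above, at 1.57-fold [1.43 to 1.72], and so was PRKD2 at 1.21-fold [1.14 to 1.28]. None of the 9 genes lay within 1.2-fold (50.8% of 12696 genes did), and 0 were at least 2-fold apart, against 10.9%. At 1.5-fold 3 were apart, against 22.4%. The median of the 9 was -0.39, beside -0.003 for all genes. The FSK and PMA libraries thus differed by under 2-fold for each of the 9 genes, with no replicate error to set this against.

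For PRKCH, the member past 2-fold, the genes nearest in their 4 log2 ratios to control were named by Euclidean distance over the 5 libraries. Among 11907 genes that had 100 scaled counts or more in each library these were SEMA3C, a secreted semaphorin, at a distance of 0.08, C1GALT1C1, a chaperone of O-glycosylation, at 0.10 and NCEH1, a cholesterol ester hydrolase, at 0.14. In all 136 genes lay within a distance of 0.5, so this pattern was not rare.

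The transcripts within each gene showed where the gene sums rest. In PRKCA the 672-residue transcript ENST00000413366.7 held 98.0% to 98.5% of the counts, and in PRKCI the 596-residue transcript ENST00000295797.4 held 96.9% to 98.0%. These 2 genes were thus read from a single main form each in every library. In PRKCH the main form was ENST00000555082.5, which starts at 61322664 and codes for 522 residues. It had 157.2 scaled counts in control, 194.4 with FSH, 363.6 with FSK, 89.0 with SC79 and 221.1 with PMA. The longer form ENST00000332981.9, which codes for 683 residues from a start at 61321717, had 5.195 to 38.4, ENST00000552875 without a coding frame held 8.58% to 15.3%, and transcripts of the protein-coding kind held 61.9% to 78.7% of PRKCH counts. Counted over coding transcripts alone, the log2 ratio of PRKCH with FSK was 1.21. Translated in silico, both forms hold 2 matches to the C1 cysteine and histidine pattern, as do the main forms of PRKCA, PRKCD, PRKCE, PRKCQ, PRKD1 and PRKD2, while those of PRKCI and PRKCZ hold 1.

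PRKCD had 2 transcripts for the same 676 residues, of which ENST00000330452.7 held 45.9% to 49.6% in 4 libraries and 66.7% with SC79 (ENST00000394729.6 held 48.9% to 52.8% and 32.3%), while the gene sum with SC79 was at 0.957-fold [0.883 to 1.04]. In PRKD1 the 920-residue form ENST00000415220.6 held 11.1% in control and 24.2% with FSK, against 912 residues for the main form. In PRKD2 the form ENST00000433867.5 had 208.3 scaled counts in control, 3.02 with FSH, 308.6 with FSK, 463.2 with SC79 and 257.1 with PMA. The main form ENST00000291281.8 codes for the same number of residues, 878, and the PRKD2 sum with FSH was 0.984-fold [0.930 to 1.04]. PRKCE rested on ENST00000306156.7, at 91.0% to 94.8%. PRKCQ, with few counts, had its main form ENST00000263125.9 at 54.8% with PMA and 100% with FSK. Such shares are estimates between overlapping transcripts, and their assignment error is not given.

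**Figure D4:**
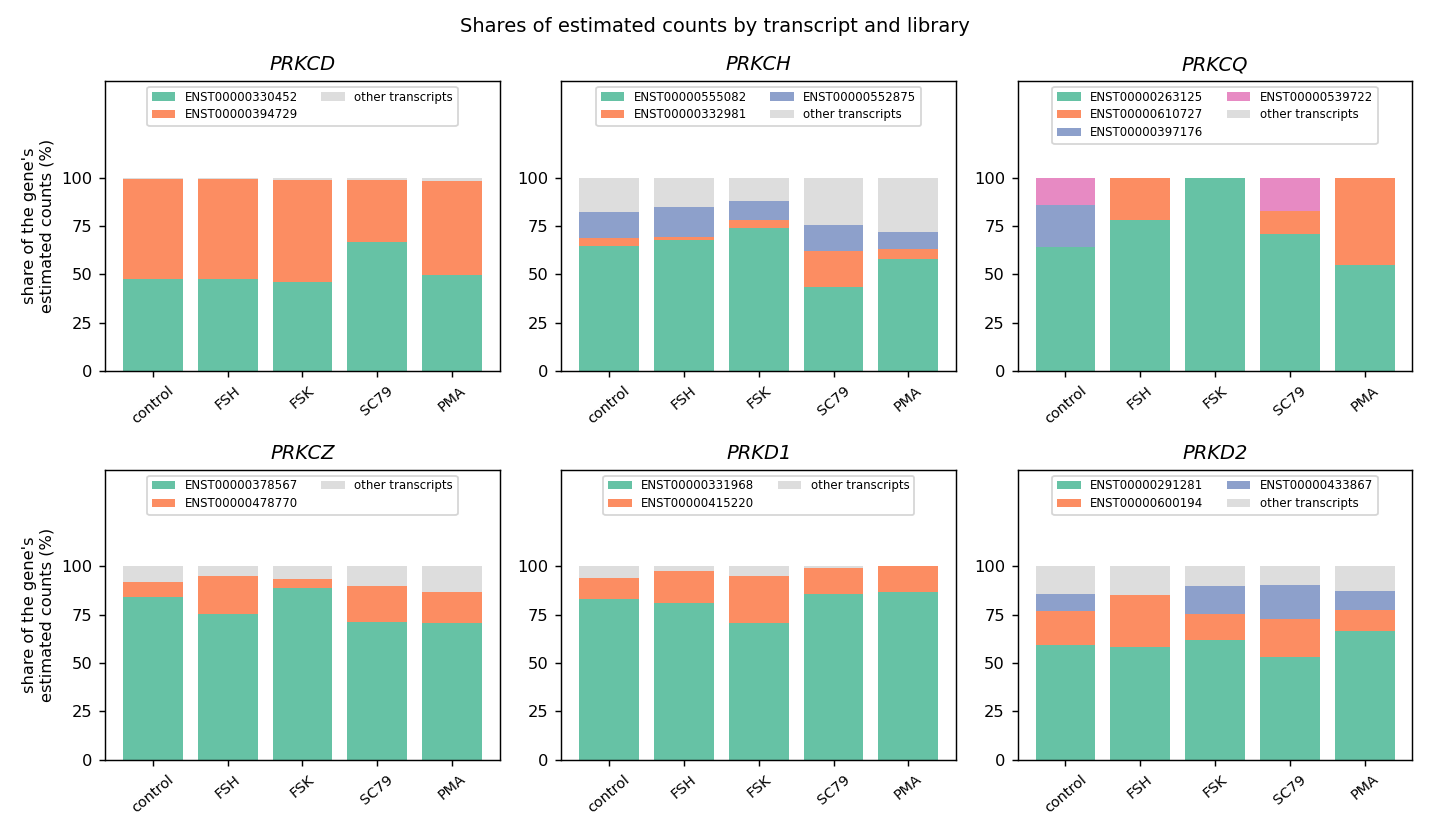
Share of each gene's estimated counts, in percent, held by the transcripts that reach 10% in any library, in a stacked bar per library for 6 genes. ENST00000555082 is the largest named form of PRKCH, at 43.2% with SC79 and 57.8% to 73.7% in the other libraries, PRKCD has 2 forms of like share except with SC79, and PRKCQ on forms that come and go between libraries.

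The authors' deposited table compares transcripts, not genes. It holds 127 member transcripts in each comparison. It lists an adjusted p-value under 0.05 for 10 pairs of a member transcript and a treatment among FSH, FSK, SC79 and PMA. These come from 5 transcripts of PRKCQ, PRKD1 and PRKD2. The share over all transcripts was not computed, so this count cannot be set against a background. In the authors' deposited table the lowest is 0.000785, for the PRKD1 form ENST00000616995.4 with PMA, which had 110.0 scaled counts in control and 0 with PMA while the gene sum was at 0.796-fold. The next is 0.00126 for the same form with SC79, also at 0 there, in the authors' deposited table. The authors' deposited table gives the main PRKCA form a log2 fold change of 0.67 with FSK at an adjusted p-value of 1, and the main PRKCH form 1.21 at 1. The authors' deposited table gives no replicate number, and each group here has 1 library.

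Around the kinases, lists of genes that make, remove or read the PKC signal were examined, 8 lists with 71 genes at the minimum with FSK. With FSH and SC79 0 of the listed genes were 2-fold apart, and the furthest from control were DGKG with FSH at 0.50 and PPP1R14C with SC79 at -0.45 (log2). With FSK 1 was at least 2-fold higher, against 4.13% of all genes, and 5 were at least 2-fold lower, against 5.43%. With PMA 5 of 73 were higher, against 3.64%, and 3 lower, against 3.62%. The list is longer with PMA because UNC13A and GAP43 reached the minimum only in the PMA library, and they are 2 of the 5 higher genes by that selection. In the list of Gq proteins, phospholipase C enzymes and their relatives, 0 of 11 genes passed with either agent. PLCL1, a phospholipase C relative without catalysis, was highest with FSK at 0.81 and PLCL2 lowest at -0.78, while with PMA PLCE1 was highest at 0.11 and PLCB4 lowest at -0.69.

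Of the diacylglycerol kinases, which end the signal by phosphorylating the lipid, 1 of 8 passed with each agent. DGKG had 167.2 scaled counts in control, 237.3 with FSH, 387.5 with FSK, 193.0 with SC79 and 398.3 with PMA, or 2.32-fold with FSK [1.93 to 2.78] and 2.38-fold with PMA [1.99 to 2.85]. PMA against FSK was at 1.03-fold [0.890 to 1.19] for it. DGKH went apart between them, with 732.5 in control, 398.7 with FSK and 1009 with PMA. DGKA was lowest with PMA at -0.25 (log2). The median of the list was 0.37 with FSK and 0.23 with PMA. Other proteins with a C1 domain bind phorbol ester too, and the next list held genes of such proteins and a relative. UNC13A, which primes vesicles for release in neurons, had 12.9 scaled counts in control, 15.0 with FSH, 17.8 with FSK, 6.48 with SC79 and 112.9 with PMA, or 8.77-fold [5.02 to 16.6]. UNC13D, its relative in granule secretion, has no C1 domain. It was far more abundant, at 9749 in control and 5236 with PMA. With FSK the list ran from CHN2, a Rac regulator, at -0.87 to UNC13B at 0.01. The 5 genes of this list at the minimum, UNC13D included, had a median of -0.56 with PMA.

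Among scaffolds, 1 gene stood on opposite sides of control with FSK and PMA. AKAP12, which anchors PKA and PKC at the membrane, had 3998 scaled counts in control, 3750 with FSH, 1928 with FSK, 3230 with SC79 and 10755 with PMA. It was the lowest of its list with FSK at 0.482-fold [0.456 to 0.509] and the highest with PMA at 2.69-fold [2.60 to 2.79]. AKAP5, another anchor of both kinases, was lowest with PMA at 0.401-fold [0.346 to 0.464]. PDPK1, the kinase that primes PKC, was highest with FSK at 0.36 (log2). In this list of 12 genes, priming kinase, chaperones and phosphatases included, the medians were -0.20 and -0.14. Among 10 partners of atypical PKC, LLGL2, a polarity protein that atypical PKC phosphorylates, was highest with FSK at 1.65-fold [1.48 to 1.85] and lowest with PMA at 0.431-fold [0.364 to 0.507]. PARD6G was lowest with FSK at -0.77 (log2) and PARD6A highest with PMA at 0.58, both genes of the PAR6 adaptor.

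The substrate list held the gene furthest below control with FSK, CARD10, a scaffold between PKC and NF-kB. It had 1564 scaled counts in control, 1416 with FSH, 361.9 with FSK, 1268 with SC79 and 693.8 with PMA. It was past 2-fold lower with both agents. NRGN, a calmodulin-binding PKC substrate, had 456.3 in control, 116.1 with FSK and 249.4 with PMA. GAP43, a growth cone substrate, had 49.6 in control and 196.0 with PMA, or 3.95-fold [2.91 to 5.44]. PPP1R14C, an inhibitor of a myosin phosphatase, was highest with FSK at 0.34 (log2). The median of the 12 PKC substrate genes with FSK was -0.17 and that of 13 with PMA 0.02. Among 10 PKD substrate genes, HDAC5, a class IIa histone deacetylase that PKD sends out of the nucleus, had 2802 in control, 2728 with FSH, 2655 with FSK, 3211 with SC79 and 6873 with PMA. That was 2.45-fold [2.35 to 2.56] with PMA alone, while its relative HDAC9 was at 0.414-fold [0.371 to 0.460] with FSK and 0.980-fold [0.905 to 1.06] with PMA. HDAC4 was highest with FSK at 0.63 (log2) and PI4KB, a Golgi lipid kinase, lowest with PMA at -0.21. The list medians were -0.26 with FSK and 0.18 with PMA.

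Set against FSK, PMA was at least 2-fold higher for 8 of the 73 list genes, against 5.8% of all genes, and lower for 2, against 5.13%. UNC13A, at 17.8 scaled counts with FSK, and GAP43, at 91.0, reached the minimum only in the PMA library. They are 2 of the 8 higher genes by that selection. The higher genes were AKAP12 at 2.48, UNC13A at 2.60, HDAC5 at 1.37, DGKH at 1.34, HDAC9 at 1.24, GAP43 at 1.10, NRGN at 1.10 and PPP1R14B at 1.04 (log2), and the lower genes LLGL2 at -1.94 and PLCL1 at -1.42.

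**Figure D5:**
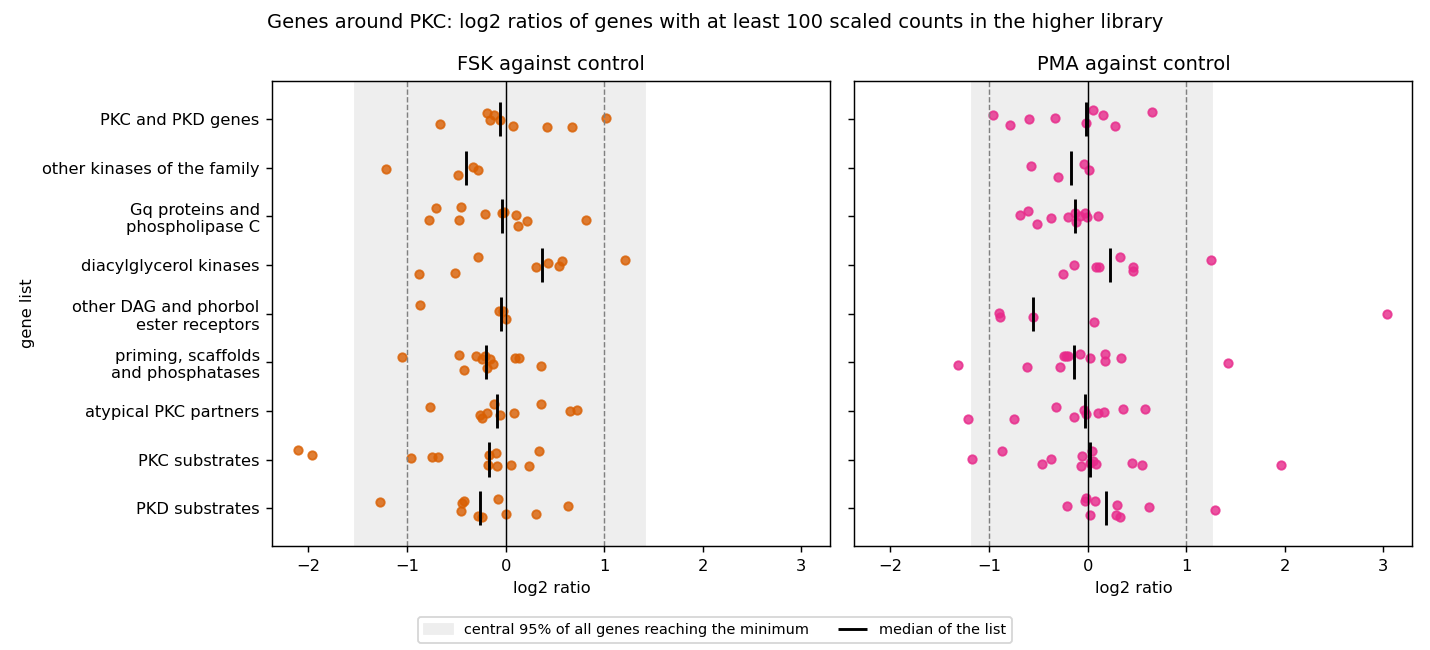
Log2 ratio to control with FSK and with PMA of the genes in each list that reach the minimum of 100, 1 point per gene, with a bar at the list median, grey for the central 95% of all genes and dashed lines at 2-fold. UNC13A is furthest right with PMA at 3.04, and CARD10 furthest left with FSK at -2.11.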

How the data were processed

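Polyadenylated RNA of 5 KGN libraries, 1 per group, was sequenced. The authors deposited estimated counts per Ensembl transcript, per the file headers. Per the submitters' processing notes the tools were kallisto, Trimmomatic and edgeR; genome build not given in the sources used here. A second deposited table holds a normalized signal, the estimated counts times 1 constant per library (0.934 to 1.03), which keeps unequal library totals. The authors' comparison table gives each transcript a log2 fold change and a raw and adjusted p-value, per the file headers.

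Estimated counts of 179973 transcripts were summed per gene name, leaving out 303 transcripts without a name (at most 0.068% of counts). Sums were rounded and scaled by TMM with edgeR 4.0.16 in R 4.3.3. Log2 ratios used a pseudocount of 1. A gene was compared where either library reached 100 scaled counts, and called at 2-fold. With 1 library a group no p-value was computed; intervals are exact conditional binomial (Clopper-Pearson, 95%), from Python 3.11.15 with scipy 1.17.1. They cover counting error only, since PCR copies are not separate molecules. The ratio code was tested on simulated data. Lengths and coordinates are from GENCODE release 29, in which 89.6% of the transcripts occur by version, and 97.6% of counts fell on transcripts with a length.

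Members and lists were chosen with earlier results of these data known. All members are named, and of the other family kinases PRKD3, PKN2 and PKN3; some items are not reported here. Of each list the text names genes past 2-fold against control and the extremes with FSK and PMA where they carry the description; with FSH and SC79, where none passed, the extremes over all lists are given. GNB2L1, PRKCDBP and CERT1 were listed as second names of RACK1, CAVIN3 and COL4A3BP. Alternatives covered scaling, pseudocount, minimum, fold, coding transcripts, length weighting and the reference library (DESeq2 1.42.0 for size factors).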

Additional observations from a re-analysis of the deposited data

How the results depend on the processing

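On the authors' normalized values, which keep library totals, the median log2 ratio of the PKC and PKD genes was -0.17 with FSH, -0.34 with SC79 and -0.25 with PMA, where the median of all genes was -0.16, -0.28 and -0.25. On those values 0 genes were 2-fold apart with FSK and 2 with PMA, PRKCQ and PRKCZ, both lower. With scaling by library totals, with length weighting, and with the median of the other 4 libraries as reference, 0 genes were 2-fold apart with FSK, where PRKCH was at 1.00, 0.76 and 0.89 (log2). The FSH median was 0.0399 with length weighting and -0.0688 with that other reference. At 1.5-fold on scaled counts, 3 genes were apart with FSK, 4 with PMA and 3 between PMA and FSK. Of 390 ratios of single members recomputed, 347 stayed within their counting interval, and 26 of the 43 outside it came from the authors' normalized values. The call of PRKCH held under DESeq2 size factors, both other pseudocounts and coding transcripts alone. Of 2106 recomputed ratios of named genes, 0 called ones changed sign. No paired analysis was possible because each group has 1 library. Counting error limits PRKCB, PRKCQ and PRKCZ most, and the spread between cultures is not known for any gene.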

Other observations

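The authors' deposited table also holds a comparison of luteinising hormone (LH) with control, whose library is not among the 5 used here. In the authors' deposited table the main PRKCA form ENST00000413366.7 has a log2 fold change of -1.50 with LH, the main PRKCZ form ENST00000378567.7 -1.44 and the main PRKCI form ENST00000295797.4 -0.74, with adjusted p-values of 0.940, 1 and 1. The 2 PRKCD forms are listed at 0.94 and 0.73 in the authors' deposited table, and the main PRKD2 form ENST00000291281.8 at 0.74.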
